A study of Homo sapiens with 4 samples.

Results

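The genes described here build and mark the acidic interior of the lysosome. They are the subunits of the vacuolar H+-ATPase (V-ATPase), its accessory proteins ATP6AP1 and ATP6AP2, the cathepsins and the lysosome-associated membrane proteins (LAMP). They were chosen by gene symbol alone, by the patterns ATP6V0 or ATP6V1 with a subunit letter and an optional digit, ATP6AP1 or ATP6AP2, CTS with a last letter, and LAMP1 to LAMP5. Of the 28307 gene symbols in the count files, 43 matched. They were 9 subunits of the V0 sector, 13 subunits of the V1 sector, 2 accessory proteins, 15 cathepsins and 4 LAMP genes.

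RNA was sequenced from cultured human neurons in which a stretch of DNA had or had not been targeted by CRISPR interference (CRISPRi). In this method guide RNAs bring dCas9-KRAB, a Cas9 that cannot cut joined to a repressor domain, to a DNA site. The CRISPRi group (2 libraries) received lentivirus carrying guides against a MIR transposable element, a short interspersed repeat, on chromosome 11. The control group (2 libraries) received the empty vector. All 4 libraries came from excitatory i3N-WTC11 neurons, made from the induced pluripotent stem cell line WTC11, and all carried dCas9-KRAB under a CAG promoter in an intron of CLYBL. Neurons differentiated for 2 weeks received the virus at an approximate multiplicity of infection of 3 and then 4 days of puromycin (0.5 μg/mL), against which lentiGuide-puro gives resistance. Cells were collected at day 7 after the virus. The labels state 2 guides per element, made into virus in 293T cells, and call the replicates biologically independent. They name a single parental line, so p-values measure the spread between these samples and not between donors. Polyadenylated RNA was read as read pairs of 75 bp. In such bulk samples, fewer cells of a type and less RNA per cell cannot be told apart.

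The V-ATPase is a rotary proton pump. Its V1 sector, in the cytosol, splits ATP and turns a central stalk, and the V0 sector in the membrane carries protons into the lumen. In neurons the same pump fills synaptic vesicles, because the proton gradient drives the uptake of neurotransmitter. Several subunits have more than 1 isoform, and ATP6V0A1, ATP6V1B2 and ATP6V1G2 are the forms best known from brain. Cathepsins are proteases of the lysosome that work at acidic pH, and LAMP1 and LAMP2 are the abundant glycoproteins of the lysosomal membrane. The transcription factor TFEB and its relatives raise the expression of many lysosomal genes by binding CACGTG-containing sites near their start sites.

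The start regions of these genes are shown for that reason, with each CACGTG in capitals. Promoter sequences of RefSeq on GRCh38.p14, from 250 bases before to 50 bases after the start, matched 29 of the 43 genes. The letters CACGTG were found in 8 of these 29 promoters (27.6%), against 2396 of all 27305 gene symbols with a promoter (8.78%). The 8 were ATP6V0B, ATP6V0D1, ATP6V0E2, ATP6V1G1, CTSA, CTSD, CTSF and LAMP1. The longer TCACGTGA was in 4 of the 29 (13.8%), namely ATP6V0D1, ATP6V1G1, CTSA and LAMP1, against 1.18% of all symbols. Both motifs read the same on the plus and minus strands, and the longer contains the shorter. A match of letters is a description and not a measured binding site. Printed 5′ to 3′ on the strand of the gene, the bases that end just before each start include the paired isoforms ATP6V1G1 and ATP6V1G2, of which ATP6V1G1 has the site at position -58 and ATP6V1G2 has no match in the window shown. ATP6V0B and CTSA each show 2 matches, CTSD shows 1, and the longer LAMP1 stretch shows 5, with a sixth beginning at position -1.
ATP6V1G1, chr9:114587669-114587768, plus strand: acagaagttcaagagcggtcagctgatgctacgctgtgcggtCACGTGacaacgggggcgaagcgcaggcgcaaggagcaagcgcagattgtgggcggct
ATP6V1G2, chr6:31546743-31546842, minus strand: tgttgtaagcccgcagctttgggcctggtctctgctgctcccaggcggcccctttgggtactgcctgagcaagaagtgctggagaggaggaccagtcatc
ATP6V0B, chr1:43974860-43974959, plus strand: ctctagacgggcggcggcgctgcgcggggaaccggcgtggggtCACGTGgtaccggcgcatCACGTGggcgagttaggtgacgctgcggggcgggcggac
CTSD, chr11:1763928-1764027, minus strand: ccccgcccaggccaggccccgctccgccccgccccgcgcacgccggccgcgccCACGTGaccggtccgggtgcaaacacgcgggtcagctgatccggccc
CTSA, chr20:45891235-45891334, plus strand: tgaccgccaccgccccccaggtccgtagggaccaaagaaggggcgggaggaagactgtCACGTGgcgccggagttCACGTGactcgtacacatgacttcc
LAMP1, chr13:113297039-113297238, plus strand: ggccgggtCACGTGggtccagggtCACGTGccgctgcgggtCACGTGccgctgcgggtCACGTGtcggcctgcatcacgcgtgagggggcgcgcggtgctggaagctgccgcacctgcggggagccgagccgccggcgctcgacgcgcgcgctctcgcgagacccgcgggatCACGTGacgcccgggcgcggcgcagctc

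The libraries differed greatly in depth. CRISPRi replicates 1 and 2 held 44839748 and 41560282 counts, control replicate 1 held 944993 and control replicate 2 held 39325038. Levels are given as CPM, counts scaled to a library total of 1000000. A single count was worth 1.06 CPM in control replicate 1 and between 0.0223 and 0.0254 CPM in the others. Of the 43 genes, 25 had at least 10 counts in control replicate 1. Markers common to neurons summed to 25629 and 26530 CPM in CRISPRi libraries, against 22621 and 25888 CPM in controls. Markers of dividing cells stood apart in control replicate 1, at 806 CPM, against 151 and 159 CPM in CRISPRi libraries and 163 CPM in control replicate 2.

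No gene of the 43 passed the test between CRISPRi and control neurons. At a Benjamini-Hochberg adjusted p under 0.05 over 15708 tested genes, the quasi-likelihood test of edgeR called 0 of the 33 tested members higher and 0 lower. The background was 0% of all tested genes called higher and 0.0255% (4 genes) called lower. At an unadjusted p under 0.05, 1 member was higher (ATP6V1H) and 0 lower, against 0.547% and 0.414% of all tested genes. DESeq2 and limma-voom also called 0 members in each direction. Of all 15708 tested genes DESeq2 called 1 higher and 11 lower, and limma-voom 0 higher and 2 lower. Without control replicate 1 edgeR again called 0 members, where it called 0.437% of all tested genes higher and 0.222% lower. The other 10 members had too few counts to be tested. Of these, 6 had no count in any library (ATP6V0A4, ATP6V0D2, ATP6V1G3, CTSE, CTSF and CTSG) and 4 had few (ATP6V1B1, ATP6V1C2, CTSW and LAMP3). The deposited rows name no transcript for the 6 genes without a count. Whether reads of these 6 were missed in counting cannot be told, since the counter is not given.

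The 95% confidence interval excluded both a halving and a doubling for 25 of the 33 tested members and for 10786 of all 15708 tested genes. An absolute log2 fold change under 0.2 was found for 22 of the 33. The same count over all tested genes was not made, so this cannot be read as particular to the members. The median log2 fold change, CRISPRi over control, was 0.06 for the 17 tested V-ATPase subunits, -0.21 for the 11 tested cathepsins and 0.04 for the 3 tested LAMP genes, beside 0.01 over all tested genes. Log2 fold changes were above 0 for 13 of the 17 V-ATPase subunits and below 0 for 8 of the 11 cathepsins, with 8281 above and 7427 below over all genes. The medians changed with the control library left out, and so did the median over all tested genes. Without control replicate 1, 8 of the 17 subunits lay above 0 (median -0.0029) and 6 of the 11 cathepsins below (median -0.0020). Without control replicate 2 the median was 0.12 for the subunits, then with ATP6V1C2 among them, and -0.093 for the cathepsins. The cathepsin median was also nearer 0 with all 4 libraries under a filter of 1 CPM in 2 libraries (-0.046) and by limma-voom (-0.061). The subunits ranged between -0.43 and 0.31 and the cathepsins between -0.93 and 0.33.

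**Figure D1:**
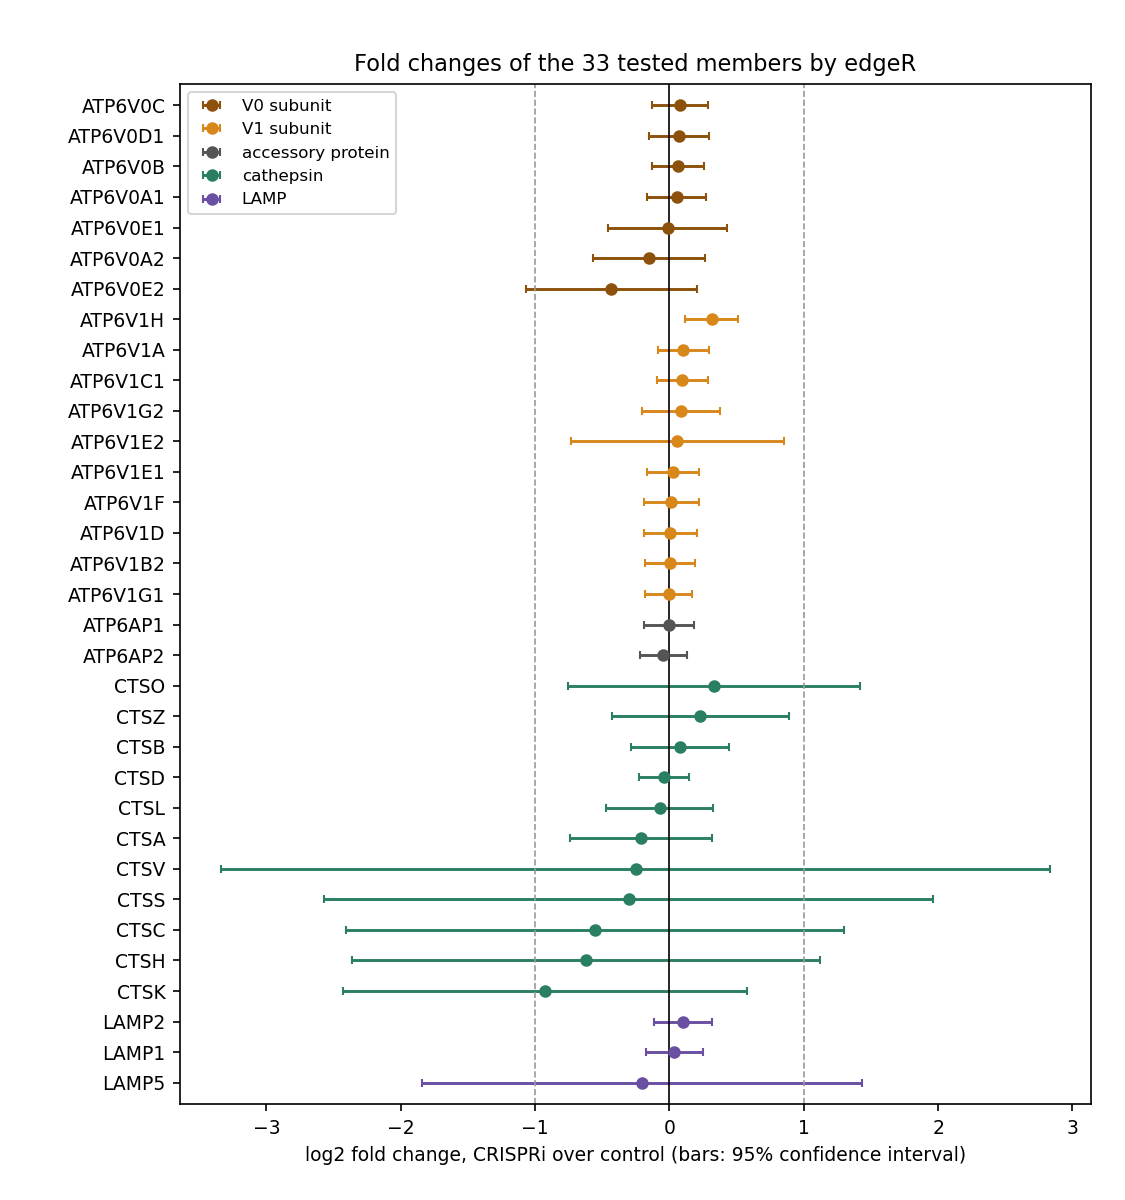
Log2 fold change of each of the 33 tested genes, CRISPRi over control, on the horizontal axis, by edgeR (points) with the 95% confidence interval (bars); colours mark V0 subunits, V1 subunits, accessory proteins, cathepsins and LAMP genes, and dashed lines mark a halving and a doubling. The bars of 25 genes stay within the dashed lines, ATP6V1H is the sole gene whose bar leaves out 0, and the widest bars belong to rarely counted cathepsins and LAMP5.

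In total the 43 genes held 4180 and 4177 CPM in CRISPRi libraries, against 4109 and 4186 CPM in controls. The V-ATPase subunits made up most of it, at 3098 and 3082 CPM in CRISPRi libraries, against 3012 and 3082 CPM in controls. The cathepsins together held 403 and 421 CPM in CRISPRi libraries, against 423 and 421 CPM in controls. The summed levels of the groups overlapped for the set as a whole, for the V0 subunits and for the LAMP genes. The summed V1 subunits were 1611 and 1614 CPM in CRISPRi libraries, against 1525 and 1593 CPM in controls, a gap smaller than the distance between the controls. The cathepsin sums of both CRISPRi libraries were below both controls, but CRISPRi replicate 2 by less than 1 CPM. The sums of the accessory proteins were also lower, at 414.9 and 415.0 CPM in CRISPRi libraries, against 428 and 421 CPM in controls. Neither accessory gene passed the test.

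Levels of different genes can be compared only per length, here as CPM per kb of transcript, with lengths implied by the authors' deposited FPKM values. On that scale ATP6V0C, the proteolipid that forms most of the membrane ring, stood first at 488 ± 11.99 in CRISPRi and 466 ± 23.6 in control neurons (SD, n = 2 each). ATP6V0B, the related ring proteolipid, had 199 ± 5.08 in CRISPRi and 192 ± 7.26 in control neurons, and ATP6V1F, a subunit of the central stalk, had 187 ± 0.478 and 184 ± 14.5 (SD, n = 2 each). ATP6V0C thus exceeded every other member beyond the spread, while the control values of ATP6V0B and ATP6V1F overlapped. CTSD, an aspartic protease, was the highest cathepsin, at 94.1 ± 0.895 in CRISPRi and 98.6 ± 5.55 in control neurons (SD, n = 2 each), next to ATP6V0D1 and ATP6V0A1. LAMP1 held 69.5 ± 0.582 in CRISPRi and 67.6 ± 5.25 in control neurons, well above LAMP2 at 15.4 ± 0.939 and 14.7 ± 0.722 (SD, n = 2 each). The choice of length mattered for a few genes. With GENCODE lengths the mean over all 4 libraries was 75.3 instead of 38.8 for CTSB, 32.0 instead of 15.1 for LAMP2 and 177 instead of 120 for ATP6V1G1. For ATP6V0B it was 163 instead of 196, then below ATP6V1F at 184 and below ATP6V1G1.

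**Figure D2:**
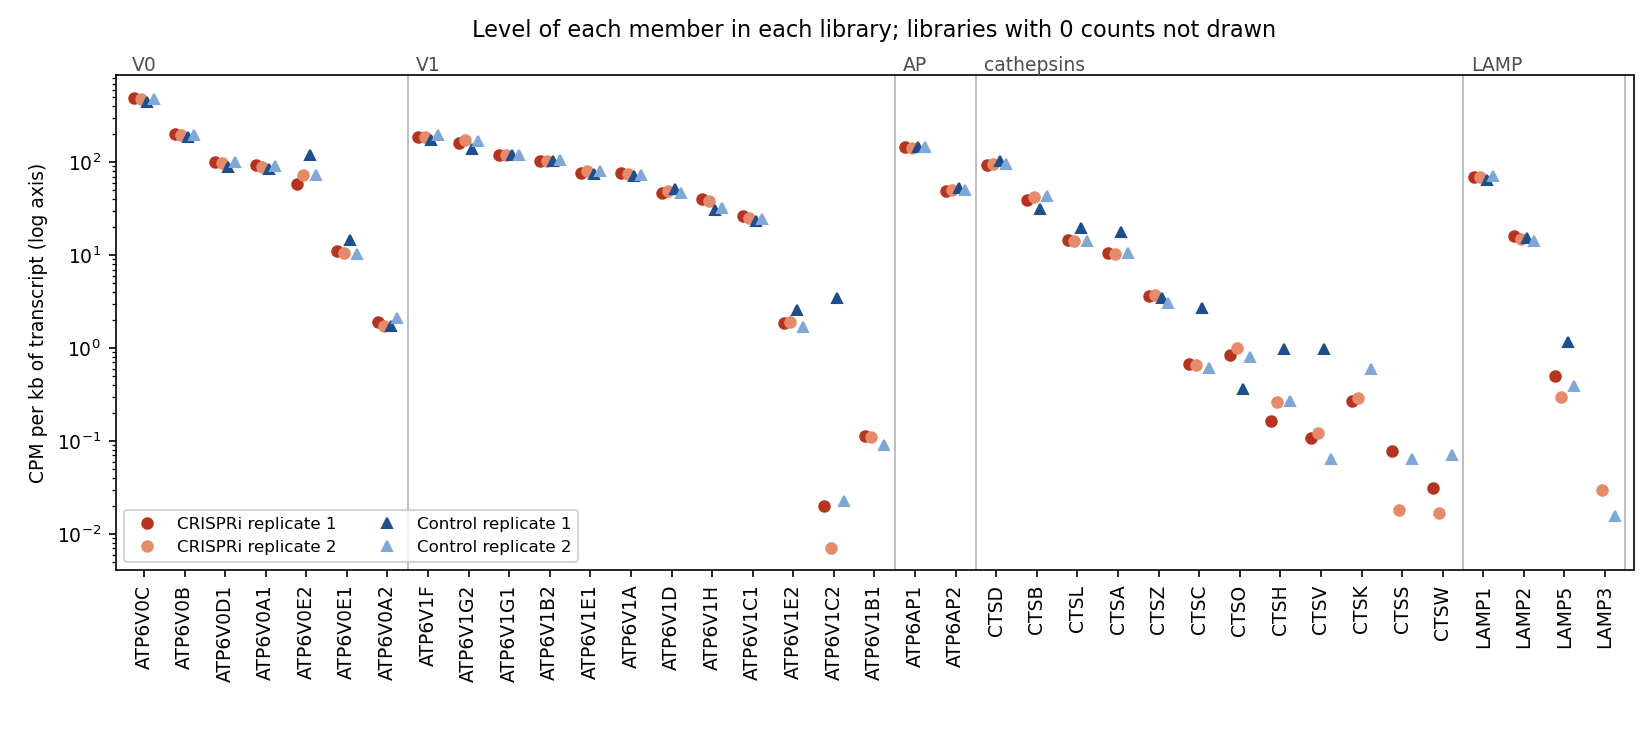
Level of each gene with a count, in CPM per kb of transcript on a log axis, in the 2 CRISPRi libraries (circles) and the 2 control libraries (triangles), grouped as V0 subunits, V1 subunits, accessory proteins (AP), cathepsins and LAMP genes and sorted by the mean level. The symbols of most common genes nearly coincide, while control replicate 1 lies apart for ATP6V0E2 and CTSA. Control replicate 1 also lies apart for scarce genes with few counts there, among them ATP6V1C2, CTSC, CTSH, CTSO, CTSV and LAMP5.

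The largest V0 subunit, a, holds the half-channels through which protons cross. ATP6V0A1, its neuronal form, had 389 and 372 CPM in CRISPRi libraries, against 351 and 385 CPM in controls. The groups overlapped, with control replicate 1 lowest, and the log2 fold change was 0.06 (SE 0.09, 95% interval -0.16 to 0.28). ATP6V0A2, the form best known from the Golgi and endosomes, had 12.8 and 11.6 CPM in CRISPRi libraries, against 11.6 and 14.1 CPM in controls. ATP6V0A4, the kidney form, had 0 counts in all libraries, where 3 counts would be 0.0669 to 0.0763 CPM in the 3 deep libraries and 3.17 CPM in control replicate 1. TCIRG1, the osteoclast form, which the symbol patterns do not take in, had 1.61 and 1.299 CPM in CRISPRi libraries, against 2.12 and 1.09 CPM in controls. Per length, ATP6V0A1 therefore made up 97.5% ± 0.126 of the subunit a transcripts in CRISPRi and 97.2% ± 0.180 in control neurons (SD, n = 2 each).

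The ring proteolipid ATP6V0C had 555 and 536 CPM in CRISPRi libraries, against 503 and 540 CPM in controls. The groups overlapped, and the log2 fold change was 0.08 (SE 0.08, 95% interval -0.13 to 0.29). ATP6V0B had 219 and 212 CPM in CRISPRi libraries, against 202 and 213 CPM in controls, and also overlapped. ATP6V0D1, which couples the ring to the stalk, was the only form of subunit d with a count. It had 7610 and 6874 counts in CRISPRi libraries, against 140 and 6629 in controls, while ATP6V0D2, the form known from osteoclasts and kidney, had 0 in each.

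Subunit e is a small membrane protein. Its form ATP6V0E2, on chromosome 7, had the smallest p among the members with a lower level in CRISPRi libraries, without passing the test. It had 124 and 155 CPM in CRISPRi libraries, against 250 and 154 CPM in controls. Control replicate 1 was highest and CRISPRi replicate 1 lowest, and the middle pair, 1 library of each group, nearly coincided. The log2 fold change was -0.43 (SE 0.25), with an edgeR p of 0.140 and a Benjamini-Hochberg adjusted p of 1.00. Leaving out control replicate 1 gave -0.13 and leaving out control replicate 2 gave -0.81, and limma-voom gave -0.21 with all 4 libraries. Control replicate 1 also had the 806 CPM of dividing-cell markers, whose part in this value was not tested. Whether counts of ATP6V0E2 include reads of its antisense gene ATP6V0E2-AS1, with 463 and 414 counts in CRISPRi libraries and 10 and 391 in controls, cannot be told, since the strand setting is not known. Per length ATP6V0E2 made up 85.8% ± 2.36 of subunit e transcripts in CRISPRi and 88.4% ± 0.929 in control neurons (SD, n = 2 each), with ATP6V0E1 as the rest.

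In the V1 sector, ATP6V1A carries the catalytic sites for ATP. It had 360 and 353 CPM in CRISPRi libraries, against 330 and 340 CPM in controls. Both CRISPRi libraries lay above both controls, but the log2 fold change of 0.10 (SE 0.08, 95% interval -0.09 to 0.29) did not pass, with an edgeR p of 0.230 and a Benjamini-Hochberg adjusted p of 1.00. ATP6V1B2, the brain form of the other ATP-binding subunit, had 302 and 301 CPM in CRISPRi libraries, against 301 and 307 CPM in controls. Its groups overlapped, and its log2 fold change of 0.00 (SE 0.08) had an interval between -0.18 and 0.19. The kidney form ATP6V1B1 had 10 and 9 counts in CRISPRi libraries, against 0 and 7 in controls. ATP6V1B2 thus held at least 99.9% of the subunit B counts in each library.

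ATP6V1H, a regulatory subunit needed for coupling ATP use to proton transport, had the smallest p of all members. It had 87.6 and 83.9 CPM in CRISPRi libraries, from 3927 and 3487 counts, against 66.7 and 70.5 CPM in controls, from 63 and 2773 counts. The groups did not overlap. The log2 fold change was 0.31 (SE 0.08, 95% interval 0.12 to 0.51), with an edgeR p of 0.00826 before and 1.00 after Benjamini-Hochberg adjustment. Leaving out control replicate 1 gave 0.29 and leaving out control replicate 2 gave 0.39, with Benjamini-Hochberg adjusted p of 0.121 and 0.148 by edgeR, so it passed in neither case. Both CRISPRi libraries were above both controls for 5 tested members (ATP6V1A, ATP6V1C1, ATP6V1H, CTSO and CTSZ) and below both for 5 (ATP6V1G1, ATP6AP1, ATP6AP2, CTSA and CTSH). These are 5 of 33 each way, where 17.8% of all tested genes lay above and 16.5% below.

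The stalks of V1 are built from subunits C, D, E, F and G. ATP6V1C1, which regulates the joining of V1 and V0, had 151 and 144 CPM in CRISPRi libraries, against 134 and 142 CPM in controls. The groups did not overlap, although CRISPRi replicate 2 and control replicate 2 lay close together. The log2 fold change was 0.10 (SE 0.08), with an edgeR p of 0.255 and a Benjamini-Hochberg adjusted p of 1.00. ATP6V1D, of the central stalk, had 76.9 and 79.2 CPM in CRISPRi libraries, against 83.6 and 76.4 CPM in controls. ATP6V1E1, of the outer stalks, had 105 and 110.5 CPM in CRISPRi libraries, against 101.6 and 109 CPM in controls. Both overlapped between the groups. ATP6V1E2, the form known from testis, had 4.62 and 4.76 CPM in CRISPRi libraries, against 6.35 and 4.14 CPM in controls, so that ATP6V1E1 held 97.7% ± 0.0256 of subunit E transcripts per length in CRISPRi and 97.3% ± 0.904 in control neurons (SD, n = 2 each).

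Subunit G is the V1 subunit for which 2 isoforms shared the counts. ATP6V1G1, the form found in all tissues, had 191 and 190 CPM in CRISPRi libraries, against 193 and 193 CPM in controls. Both CRISPRi libraries lay narrowly below both controls, and the log2 fold change was -0.00 (SE 0.07, 95% interval -0.18 to 0.17). ATP6V1G2, the neuronal form, had 201 and 217 CPM in CRISPRi libraries, against 176 and 215 CPM in controls. These overlapped, with control replicate 1 lowest, and the log2 fold change was 0.08 (SE 0.12, 95% interval -0.21 to 0.38). ATP6V1G3, the kidney form, had 0 counts in all libraries.

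As a share of raw subunit G counts, ATP6V1G2 took 51.3% and 53.4% in CRISPRi libraries, against 47.7% and 52.7% in controls. The exact binomial (Clopper-Pearson) 95% interval in control replicate 1, from 166 of 348 counts, ran between 42.3% and 53.1%, which takes in the shares of CRISPRi replicate 1 and control replicate 2. Per length the share was 58.3% ± 1.39 in CRISPRi and 56.1% ± 3.48 in control neurons (SD, n = 2 each), a difference below the spread of the controls. Which isoform was the higher depends on the length used. The mean share over the 4 libraries was 57.2% with a length of 1602 bases for ATP6V1G1, implied by FPKM, and 47.4% with its GENCODE length of 1080 bases, beside 1261 bases for ATP6V1G2. In the files ATP6V1G2 stands on an alternate contig of chromosome 6, and the readthrough gene ATP6V1G2-DDX39B that overlaps it had 125 and 153 counts in CRISPRi libraries, against 0 and 142 in controls.

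**Figure D3:**
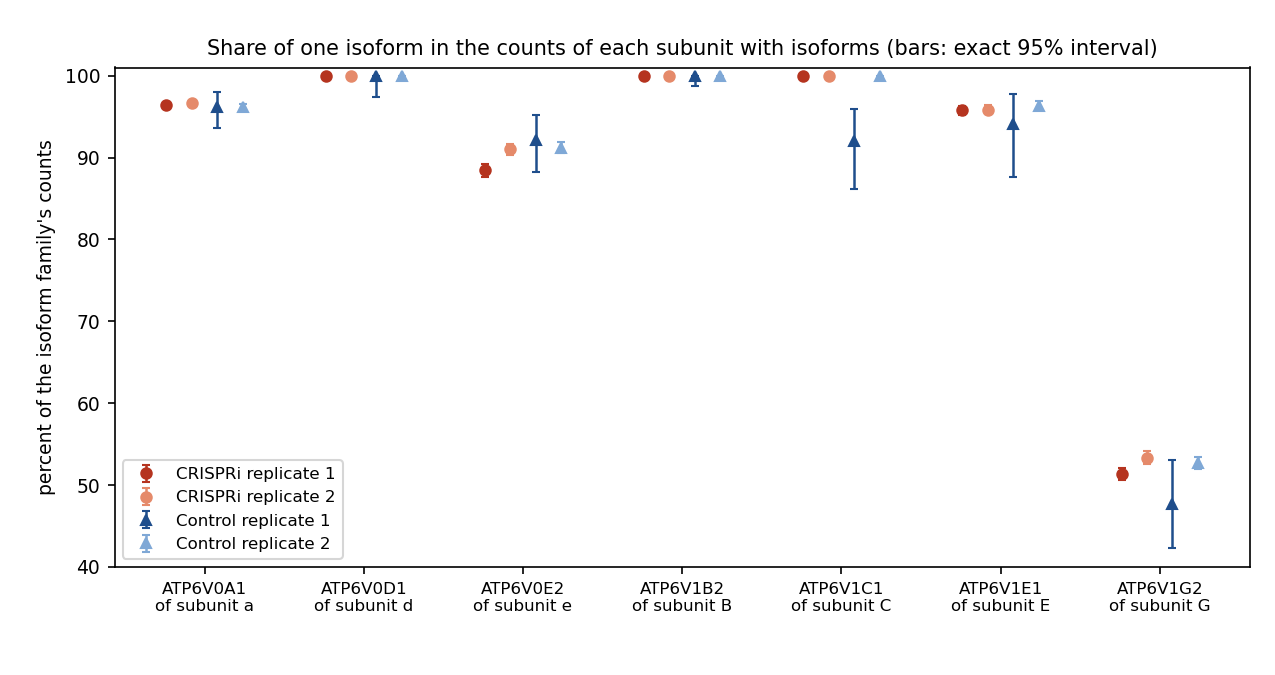
Percent of the raw counts of each subunit with more than 1 isoform that came from the isoform named, in each CRISPRi library (circles) and control library (triangles), with exact binomial 95% intervals (bars, counting error only); the vertical axis starts at 40%. ATP6V0A1, ATP6V0D1, ATP6V1B2, ATP6V1C1 and ATP6V1E1 lie at or above 92.0% in every library, ATP6V0E2 between 88.5% and 92.2%, and ATP6V1G2 between 47.7% and 53.4%.

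Subunit C was the family in which the control libraries disagreed. ATP6V1C2, known from lung and kidney, had 3 and 1 counts in CRISPRi libraries, against 11 and 3 in controls, although control replicate 1 was the shallowest library. That is 0.0669 and 0.0241 CPM in CRISPRi libraries, against 11.6 and 0.0763 CPM in controls. ATP6V1C1 took 99.96% and 99.98% of subunit C counts in CRISPRi libraries, against 92.0% (exact interval 86.2% to 96.0%) and 99.9% in controls. ATP6V1C2 did not pass the filter on low counts with all 4 libraries. Without control replicate 2, when control replicate 1 stood alone for its group, edgeR called it lower in CRISPRi, at a log2 fold change of -7.82 and a Benjamini-Hochberg adjusted p of 0.00635, the sole such call among the members. In that fit the control group is 1 library of 11 counts for this gene. The spread between replicates comes from the CRISPRi pair alone, and the lone control is assumed to vary like it, so the call compares that library with the CRISPRi pair and not the conditions. The fit called 4.97% of all genes lower and 3.61% higher. Reads of PDIA6, which overlaps the end of ATP6V1C2 on the opposite strand, cannot be separated from it without strand, and PDIA6 had 5165 and 5034 counts in CRISPRi libraries, against 122 and 4641 in controls.

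ATP6AP1 and ATP6AP2 are membrane proteins bound to V0, and both are needed for assembly of the pump. ATP6AP1, on the X chromosome, had 304 and 300 CPM in CRISPRi libraries, against 306 and 305 CPM in controls. ATP6AP2, also known as the prorenin receptor, had 111 and 115 CPM in CRISPRi libraries, against 122 and 116 CPM in controls. In each case both CRISPRi libraries were lower, by a margin smaller than the distance between the CRISPRi replicates. The log2 fold changes were -0.00 (SE 0.07) for ATP6AP1 and -0.04 (SE 0.07) for ATP6AP2, with intervals between -0.19 and 0.18 and between -0.22 and 0.13.

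Among the cathepsins, CTSD alone made up 57.4% and 56.5% of the transcripts per length in CRISPRi libraries, against 57.1% and 56.5% in controls, by the lengths implied by FPKM. By GENCODE lengths it was 46.3% and 45.0% in CRISPRi libraries, against 47.9% and 45.0% in controls, and the mean share of CTSB over all 4 libraries was 36.3% instead of 23.0%. The level of CTSD was 197 and 200 CPM in CRISPRi libraries, against 216 and 199 CPM in controls. Control replicate 1 was highest and the other 3 libraries lay within 3 CPM, with a log2 fold change of -0.04 (SE 0.08, 95% interval -0.23 to 0.15). CTSD lies at the far end of chromosome 11, 45.8 Mb from the targeted element. The nearest members to the element were CTSW at 18.3 Mb and CTSF at 19.0 Mb, and CTSC was 40.7 Mb away. The title and the design text of the series give different intervals for the element, and the distances as rounded here hold for both.

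CTSB and CTSL are cysteine proteases that degrade a wide range of proteins. CTSB had 152 and 166 CPM in CRISPRi libraries, against 123 and 168 CPM in controls, and CTSL had 23.3 and 23.2 CPM in CRISPRi libraries, against 31.7 and 22.6 CPM in controls. Control replicate 1 was the lowest library for CTSB and the highest for CTSL, and the groups overlapped in both. The log2 fold changes were 0.08 (SE 0.15, 95% interval -0.29 to 0.45) for CTSB and -0.07 (SE 0.16, 95% interval -0.47 to 0.33) for CTSL. Without control replicate 1 they were -0.08 and 0.04, so that both turned sign. CTSZ, a carboxypeptidase of the same family, had 5.60 and 5.70 CPM in CRISPRi libraries, against 5.29 and 4.76 CPM in controls.

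The scarce cathepsins CTSC, CTSH, CTSO and CTSV lay between 0.357 and 2.98 CPM in CRISPRi libraries, against 0.280 to 6.35 CPM in controls, with 1 to 6 counts each in control replicate 1.

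CTSA, the protective protein that holds beta-galactosidase and neuraminidase in a complex, had 20.3 and 19.9 CPM in CRISPRi libraries, against 33.9 and 20.5 CPM in controls. Both CRISPRi libraries lay below both controls, but control replicate 2 differed from them by less than 1 CPM. The log2 fold change was -0.21 (SE 0.21), with an edgeR p of 0.363 and a Benjamini-Hochberg adjusted p of 1.00. Leaving out control replicate 1 gave -0.02 for CTSA, and leaving out control replicate 2 gave -0.73. With all 4 libraries limma-voom gave -0.06 and DESeq2 gave -0.32.

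CTSK, CTSS, CTSE, CTSG and CTSW are known from osteoclasts or immune cells. CTSK had 20 and 20 counts in CRISPRi libraries, against 0 and 39 in controls. The libraries of the control group thus bracketed those of the CRISPRi group. However, the exact Poisson 95% interval of the 0 counts in control replicate 1 reached 3.90 CPM, above the level in every other library. The fitted value was -0.93 on the log2 scale (SE 0.61, 95% interval -2.43 to 0.58), with an edgeR p of 0.180 and a Benjamini-Hochberg adjusted p of 1.00. By DESeq2 it was -0.48. CTSS, of antigen-presenting cells, had 14 and 3 counts in CRISPRi libraries, against 0 and 10 in controls, and CTSW had 2 and 1 counts in CRISPRi libraries, against 0 and 4 in controls. CTSE and CTSG had 0 counts in all libraries. Markers of microglia, macrophages and osteoclasts were near 0 as well, summing to 1.29 and 0.938 CPM in CRISPRi libraries, against 0 and 1.297 CPM in controls, and 7 of the 14 (AIF1, PTPRC, ITGAM, TYROBP, C1QB, TREM2 and DCSTAMP) had no count. CTSF, a cysteine cathepsin, also had 0 counts in all libraries, where 3 counts would be at most 0.0763 CPM in the 3 deep libraries. Whether reads of CTSF were missed in counting cannot be told, since the counter is not given.

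LAMP1 had 191 and 193 CPM in CRISPRi libraries, against 177 and 197 CPM in controls. LAMP2, which also serves chaperone-mediated autophagy, had 71.4 and 65.5 CPM in CRISPRi libraries, against 67.7 and 63.2 CPM in controls. The groups overlapped for both, with log2 fold changes of 0.04 (SE 0.09, 95% interval -0.18 to 0.25) for LAMP1 and 0.10 (SE 0.09, 95% interval -0.12 to 0.32) for LAMP2. LAMP3, known from dendritic cells, had 0 and 4 counts in CRISPRi libraries, against 0 and 2 in controls. LAMP5, a neuronal member known from interneurons, had 41 and 23 counts in CRISPRi libraries, against 2 and 28 in controls. LAMP1 made up 80.6% and 82.3% of the LAMP transcripts per length in CRISPRi libraries, against 79.6% and 83.0% in controls, by the lengths implied by FPKM. By GENCODE lengths the LAMP1 share was 67.1% and 69.3% in CRISPRi libraries, against 66.0% and 70.4% in controls, and the mean share of LAMP2 over all 4 libraries was 31.1% instead of 17.9%.

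For several members control replicate 1 stood apart from the other 3 libraries. The ratio of control replicate 1 to the other libraries, a comparison chosen after the values were seen, was computed for the 32 members with a count there. Its counting interval lay above 1 for 5 of them and below 1 for 2. The same share over all genes was not computed, so these numbers cannot be read as particular to the members. The ratio was 0.760 (95% interval 0.628 to 0.912) for CTSB and 0.834 (0.712 to 0.972) for ATP6V1G2. It was 1.74 (95% interval 1.52 to 1.98) for ATP6V0E2 and 1.68 (1.14 to 2.37) for CTSA. It was 4.14 (1.499 to 9.17) for CTSC, an activator of immune serine proteases that had 6 counts there. For CTSV, a relative of CTSL with 4 counts there, it was 9.86 (2.59 to 26.7), and for ATP6V1C2 it was 209 (74.0 to 636). These ratios compare a library with others and not conditions, and the intervals cover counting error only. The part of the dividing-cell markers in them was not tested.

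**Figure D4:**
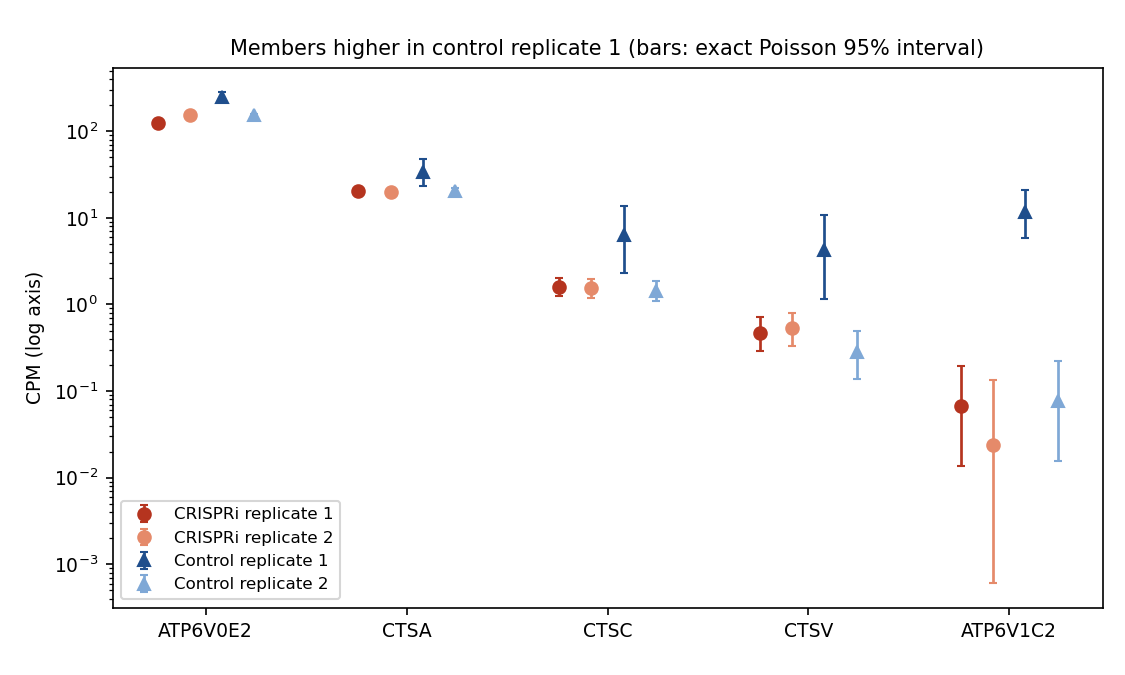
CPM, on a log axis, of the 5 genes whose ratio in control replicate 1 had an interval above 1, chosen after their values were seen, in each CRISPRi library (circles) and control library (triangles), with exact Poisson 95% intervals (bars, counting error only). Control replicate 1 is above the other 3 libraries for each, with values between 4.23 CPM for CTSV and 250 CPM for ATP6V0E2, while control replicate 2 lies close to the CRISPRi libraries.

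Other genes of the lysosome were described from whole lists, and 0 genes of each list were called in either direction. Of 18 tested V-ATPase assembly factors and regulators 14 had a log2 fold change above 0 (median 0.07), and 10 without control replicate 1 (median 0.03). WDR7, a part of the complex that loads V1 onto V0, had 127 and 125 CPM in CRISPRi libraries, against 96.3 and 123 CPM in controls. CLCN3, an endosomal chloride-proton exchanger, had 156 and 151 CPM in CRISPRi libraries, against 135 and 140 CPM in controls, with a log2 fold change of 0.17 (SE 0.07), an edgeR p of 0.0626 and a Benjamini-Hochberg adjusted p of 1.00.

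Of 32 other tested lysosomal hydrolases 22 had a log2 fold change below 0 (median -0.07), and 20 without control replicate 1 (median -0.02). PPT1, which removes palmitate from proteins, had 40.1 and 42.7 CPM in CRISPRi libraries, against 70.9 and 51.9 CPM in controls. The groups did not overlap, and the log2 fold change was -0.44 (SE 0.14), at an edgeR p of 0.0214 and a Benjamini-Hochberg adjusted p of 1.00. ARSA, arylsulfatase A, had 17.3 and 17.6 CPM in CRISPRi libraries, against 16.9 and 13.4 CPM in controls. Of 23 tested genes of the lysosomal membrane 13 were below 0 (median -0.05), and 13 without control replicate 1 (median -0.0024). With all libraries the smallest p in that list belonged to the channels TPCN1 and TMEM175. TPCN1 had 6.22 and 7.48 CPM in CRISPRi libraries, against 12.7 and 8.77 CPM in controls, and TMEM175 had 20.8 and 21.0 CPM in CRISPRi libraries, against 36.0 and 23.5 CPM in controls.

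Of 14 protease inhibitors 8 had no count and 5 were tested. SERPINB9, an inhibitor of granzyme B, had 33.3 and 28.9 CPM in CRISPRi libraries, against 23.3 and 24.7 CPM in controls, with a log2 fold change of 0.36 (SE 0.13), an edgeR p of 0.0350 and a Benjamini-Hochberg adjusted p of 1.00. CSTB, the inhibitor of cysteine cathepsins inside cells, had 38.7 and 37.9 CPM in CRISPRi libraries, against 66.7 and 39.0 CPM in controls, so that control replicate 1 again stood alone. Of 13 tested genes that sort enzymes to the lysosome 9 were above 0 (median 0.02), and 8 without control replicate 1 (median 0.0014). Of 19 tested transcriptional regulators and mTORC1 partners 13 were above 0 (median 0.04), and 12 without control replicate 1 (median 0.03). Over all 15708 tested genes 8281 were above 0 with all 4 libraries. The sorting receptor SORT1 had 180 and 177 CPM in CRISPRi libraries, against 153 and 165 CPM in controls, and the adaptor GGA2 had 32.5 and 31.3 CPM in CRISPRi libraries, against 47.6 and 34.1 CPM in controls. RRAGC, a GTPase that recruits mTORC1 to the lysosome, had 28.3 and 28.2 CPM in CRISPRi libraries, against 19.0 and 25.6 CPM in controls. LAMTOR3, of the scaffold that holds it there, had 104 and 105 CPM in CRISPRi libraries, against 82.5 and 99.8 CPM in controls.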

How the data were processed

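For each gene row the authors deposited a read count in whole numbers and an FPKM value. Per the submitters' processing notes the reads were placed on hg38, and edgeR and limma are named among the tools. The aligner, the counter and the use of strand are not given in the sources used here. Rows of the same symbol were added up, alternate contigs included (5.08% to 5.15% of counts), and divided by the library total to give CPM. The deposited FPKM served only to derive transcript lengths (the median over the 3 deep libraries), with GENCODE release 29 lengths for ATP6V1G2 and CTSO, whose FPKM was 0 although counts were present.

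The test was the robust quasi-likelihood F test of edgeR 4.0.16 (R 4.3.3) after filterByExpr and TMM scaling, fitted to all 4 libraries with a term for group. Its p-values were adjusted by Benjamini-Hochberg over all 15708 genes, at a threshold of 0.05. SE and 95% intervals derive from the F statistic. edgeR raised p to its Poisson bound for 1704 genes, 2 of them members. For 2 libraries against 2, the smallest two-sided p of an exact permutation test is 0.333, and that test was not used. Depth ran from 944993 to 44839748 counts. Shares have exact binomial intervals and counts exact Poisson ones, which cover counting error only.

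The genes, the other lysosomal lists and the cell-type markers were chosen with earlier results of these data known. Values in every library are given for a written list of isoforms and proteases, for any gene past the threshold, and for the 3 tested genes with the smallest p in each direction; in the other lists, for the 2 with the smallest p. Promoters were read from RefSeq on GRCh38.p14. DESeq2 1.42.0, limma-voom 3.58.1, other scalings and filters, a replicate block and each library left out were alternatives.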

Additional observations from a re-analysis of the deposited data

How the results depend on the processing

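With all 4 libraries, 0 members were called in either direction under each scaling, filter and tool and with the replicate number as a block. Few genes were called at all in these fits. Without the block they numbered 0 to 1 higher and 2 to 11 lower over all tested genes. Whether the replicate numbers pair the libraries could not be decided. The correlation of replicate 1 minus 2 between the groups was -0.03, but the shallow control replicate 1 adds counting error to it. The block gave 17 genes higher and 25 lower in all, and 0 members. Leaving out a library gave 0 members higher and 0 to 1 lower. The median of the V-ATPase subunits was 0.015 by limma-voom and between -0.0029 and 0.12 without a library. The value of 0.12, without control replicate 2, stood beside a median of 0.10 over all genes in that fit. That of the cathepsins, -0.21, was -0.046 with the 1 CPM filter, -0.061 by limma-voom, -0.31 with the block and between -0.25 and -0.0020 without a library. The causes were not tested. A fit without a library leaves its group with 1 sample, assumed to vary like the other group.

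Of 214 alternative fold changes of 18 members, 195 kept their sign, and 19 in 9 members did not. Most of these lay near 0. ATP6V1B2 was -0.0114 with total-count scaling, -0.0108 by limma-voom, -0.0021 with the 1 CPM filter and -3.37e-05 by DESeq2, and ATP6AP1 was 0.00015 with no filter. By limma-voom ATP6V1G2 was -0.0026, CTSB -0.0375, CTSL 0.0168 and LAMP1 -0.0136. Without a library, values ran from -0.0117 to 0.15 for ATP6V0A1, -0.0179 to 0.0353 for ATP6V1B2, -0.0143 to 0.0112 for ATP6V1G1, -0.0112 to 0.0097 for ATP6AP1, -0.0332 to 0.28 for ATP6V1G2, -0.075 to 0.40 for CTSB, -0.42 to 0.0426 for CTSL and -0.0315 to 0.15 for LAMP1. CTSK ran from -1.09 to 6.77, the last against 0 counts in control replicate 1 alone, which depends on the prior count and is no bound. ATP6V0E2 kept its sign but was -0.21 by limma-voom, as did CTSA at -0.06, and CTSK was -0.48 by DESeq2. Tested members outside this tally were less stable. All but ATP6V0B, CTSH, CTSO and CTSZ turned sign when a control library was left out. Without control replicate 1, CTSV went from -0.25 to 0.83 and CTSC from -0.55 to 0.12.

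In raw counts, without length, the mean share of ATP6V0A1 was 96.4% (97.3% per length) and that of ATP6V1G2 51.3% (57.2% per length). With GENCODE lengths, added after the data were seen, the ATP6V1G2 share was 47.4%. Without alternate contigs 31 members were tested, and ATP6V1G2 had no count to give a share. Genes under about 3.17 CPM are below 3 counts in control replicate 1, which limits what can be said of them.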
